A study of Mus musculus with 4 samples.

Results

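Heat shock proteins and chaperones were followed in mouse CD4+ T cells that had been given dimethyl fumarate (DMF) during culture. The members are the protein-coding rows of the deposited gene table whose names mark the Hsp70, Hsp90, Hsp60 and Hsp10, DnaJ, small heat shock protein, BAG or CCT families, together with Tcp1, Chordc1, Hsf1 and Hsf2. The rule found 90 genes among the 54532 rows of the table, and 71 of them had a mean FPKM of at least 1 and were tested. FPKM counts fragments per kilobase of gene and per unit of library size. Naive CD4+ T cells from the spleens of wild-type (WT) mice were cultured for 3 days under conditions that favour T follicular helper (Tfh) cells. The DMF group (replicates 1 and 2) received DMF, a fumaric acid ester known to activate the transcription factor Nrf2, and the control group (replicates 1 and 2) received none. The DMF dose and the age of the mice are not given in the labels. The libraries come from cultured cells and not from mice with graft-versus-host disease, the condition named in the series title. Nothing in the labels says that replicates were separate cultures or animals, so the p-values cover no more than the spread among the 4 libraries, and that spread may be technical.

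Chaperones bind unfolded or partly folded proteins and keep them from aggregating. Hsp70 proteins work in cycles of ATP use that are started by DnaJ proteins (also called Hsp40) and reset by exchange factors such as the BAG proteins, and Hsp90 receives many of their clients for the last steps of folding. The ring-shaped complex TRiC folds actin and tubulin, and Hsp60 with its lid Hsp10 folds proteins inside mitochondria. Some of these genes are kept on at all times, while others are switched on by heat or by damaged proteins through the heat shock factor HSF1. T cells that start to grow and divide are known to make large amounts of chaperones. DMF reacts with cysteine residues of proteins, and the comparison asks here which chaperone transcripts differed with it.

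The reads worked out from FPKM came to 17134385 and 17516953 in the DMF libraries and to 17171199 and 15900118 in the controls. Control replicate 2 stood apart. Ribosomal protein genes took 6.29% and 6.29% of the reads in the DMF libraries, against 6.91% in control replicate 1 and 13.8% in control replicate 2. Over the 71 tested members, the log2 difference between replicates had an SD of 0.117 in the DMF group and 0.445 in the control group. The distance of control replicate 2 from the mean of the other 3 libraries went down with gene length over these members (Spearman's rho = -0.503, Pearson's r = -0.572, across genes that share these 4 libraries, as a description). Over all 12166 tested genes the same Spearman's rho was -0.419 and Pearson's r was -0.162. The log2 difference between replicates had an SD of 0.316 in the DMF group and 0.745 in the control group over those genes. Many of the results are therefore also given without control replicate 2. The 6 listed CD4 T cell markers summed to 656 and 650 FPKM in the DMF libraries, against 733 and 1094 FPKM in the controls, with 5 lower in both DMF libraries, none at 0 and each group mean at 40.8 FPKM or more. The summed FPKM of the 6 listed CD8 T and NK cell markers was 7.75 and 7.96 in the DMF libraries, against 33.0 and 70.6 in the controls, with 4 of the 6 lower in both DMF libraries and Klrb1c and Ncr1 at 0 in every library. The 7 listed B cell markers summed to 85.8 and 84.9 FPKM in the DMF libraries, against 79.8 and 120 FPKM in the controls. Of these, 6 were higher in both DMF libraries and Ighm was lower in both. Ighm made up most of each sum, at 62.7 and 62.4 FPKM in the DMF libraries, against 71.6 and 107 FPKM in the controls. The sums thus follow Ighm and not the other 6 markers. Of the 8 listed myeloid markers, which summed to 9.17 and 7.22 FPKM in the DMF libraries, against 8.84 and 12.3 FPKM in the controls, 2 were higher and 3 lower in both DMF libraries. For comparison, 26.4% of all tested genes lay above both controls and 26.8% below both. The marker lists also hold genes too low to be tested. The part of these cells in the results below was not tested. In bulk RNA, fewer cells of a type and less RNA per cell cannot be told apart.

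**Figure D1:**
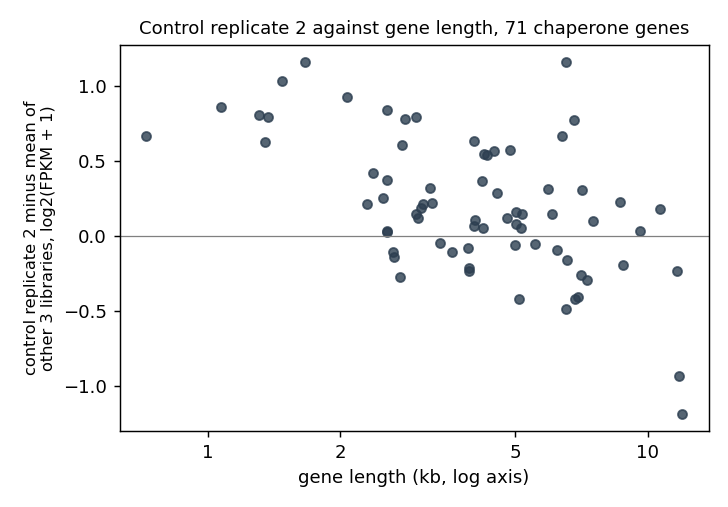
Deviation of control replicate 2 from the mean of the other 3 libraries (log2(FPKM + 1), vertical axis) against gene length (kb, log axis) for the 71 tested chaperone genes, each a point. Short genes lie mostly above 0, and the longest genes, Dnajc1, Hspa4l and Dnajc13, lie below it. Other long genes lie on both sides of 0, such as Dnajc11 above and Dnajb4 below. The Spearman's rho is -0.503.

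With all 4 libraries, the largest differences among the tested members lay in the inducible Hsp70 genes Hspa1a and Hspa1b, which encode the Hsp70 protein that cells make on heat shock. This order did not hold in every fit: without control replicate 1 the mitochondrial gene Dnajc15 was lowest at a log2 difference of -1.28, and with the gene length trend removed Dnajc15 (-0.95) lay below Hspa1a (-0.86). Hspa1b (ENSMUSG00000090877, a single exon, GRCm38 chromosome 17, 34956436 to 34959238) was at 8.21 and 8.52 FPKM in the DMF libraries, against 24.7 and 21.5 FPKM in the controls. Hspa1a (ENSMUSG00000091971, a single exon, chromosome 17, 34969190 to 34972156) was at 1.51 and 2.02 FPKM in the DMF libraries, against 4.35 and 4.96 FPKM in the controls. Both genes were low in both DMF libraries, and the groups did not overlap in either. The mean of Hspa1b was 8.36 ± 0.223 FPKM in the DMF libraries and 23.1 ± 2.26 FPKM in the control libraries (SD, n = 2 libraries). The control mean was thus 2.76 times the DMF mean. Hspa1a averaged 1.77 ± 0.362 FPKM in the DMF libraries and 4.66 ± 0.428 FPKM in the control libraries, with a control mean 2.64 times the DMF mean. These values rest on 421 and 446 reads of Hspa1b in the DMF libraries, against 1225 and 838 in the controls, and on 82 and 112 reads of Hspa1a, against 229 and 205.

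In limma's test over all 12166 genes, the difference of DMF minus control on the log2(FPKM + 1) scale, which understates the change of low genes, was -1.36 ± 0.18 for Hspa1b (SE, adjusted p = 0.196) and -1.04 ± 0.21 for Hspa1a (SE, adjusted p = 0.298). Neither passed the adjusted threshold of 0.05, and nor did any other gene: 0% of all genes were called, with a lowest limma adjusted p of 0.128, and voom on the recovered reads also called 0. At an unadjusted p under 0.05, Hspa1a and Hspa1b were the 2 members that lay lower in DMF and 0 members lay higher, where 6.31% of all tested genes were lower and 3.14% higher. They were also the 2 members with a log2 difference of -1 or below, a size reached by 4.15% of all tested genes. Without control replicate 2 the limma log2 difference of Hspa1b was -1.45 (adjusted p = 0.0193), and when control replicate 1 was left out instead the limma value was -1.26 (adjusted p = 0.00206). For Hspa1a these were -0.96 (limma adjusted p = 0.0714) and -1.11 (limma adjusted p = 0.0137). In these fits the lone control is assumed to vary like the DMF libraries, which lay close together, and without control replicate 1 limma called 61% of all tested genes, so a call there sets no gene apart. With the replicate number as a block the limma adjusted p of Hspa1b was 0.0046. Over 14 alternatives the log2 difference of Hspa1b lay between -1.45 and -1.16 (limma adjusted p from 0.00206 to 1.00), and over 13 that of Hspa1a between -1.36 and -0.86 (limma adjusted p from 0.0137 to 1.00).

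Hspa1a and Hspa1b are near-identical copies, and 62.3% of the 50-base words of the annotated Hspa1b transcripts also occur in Hspa1a, so how the counting divided their reads is uncertain. Of the exon bases of Hspa1a, 19.0% also lie in an exon of Gm20481 on the other strand, and whether the counting used strand is not given in the sources used here. Summed over both copies, which depends little on how reads were split between them, the level was 9.72 and 10.5 FPKM in the DMF libraries, against 29.01 and 26.4 FPKM in the controls. The ratio of Hspa1b to Hspa1a per length was 5.43 and 4.22 in the DMF libraries, against 5.66 and 4.33 in the controls, so the groups overlapped in it. Hspa1l, a neighbour of Hspa1a whose product is best known from testis, did not reach the FPKM minimum and had 23 and 21 reads with DMF, against 6 and 9 in the controls. In Hspa1l, 9.57% of 50-base words are shared with Hspa1a, and 71.9% of its exon bases also lie in an exon of Gm10501 on the other strand, so its few reads are uncertain.

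The DNA upstream of both copies is shown because these were the tested members with the lowest log2 differences with all 4 libraries, and HSF1 is known to bind upstream of such genes. The windows are the 250 bases before the RefSeq start sites (GRCm38.p6, minus strand), chr17:34972157-34972406 for Hspa1a and chr17:34959239-34959488 for Hspa1b, read 5′ to 3′. They lie in no annotated exon of GENCODE M21. Capitals mark a pair of facing heat shock units, GAANNTTC, which starts 104 bases before the start site in both.
Hspa1a: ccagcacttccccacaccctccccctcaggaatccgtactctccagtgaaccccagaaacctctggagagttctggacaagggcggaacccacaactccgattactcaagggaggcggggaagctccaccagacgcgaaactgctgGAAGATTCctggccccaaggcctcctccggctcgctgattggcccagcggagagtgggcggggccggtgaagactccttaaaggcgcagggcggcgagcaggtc
Hspa1b: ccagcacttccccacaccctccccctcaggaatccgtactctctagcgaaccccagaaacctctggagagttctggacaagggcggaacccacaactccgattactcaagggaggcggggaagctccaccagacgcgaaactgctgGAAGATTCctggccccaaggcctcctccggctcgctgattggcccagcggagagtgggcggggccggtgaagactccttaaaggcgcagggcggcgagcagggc
The windows differ at 3 of 250 positions, an identity of 98.8%. Windows were found for 57 of the 71 tested members. A pair of heat shock units, GAANNTTC or TTCNNGAA (each reads the same on both strands), occurred in at least 1 window of 14 of these 57 and of 14.5% of the 27025 genes with a window. Among the 8 heat-inducible members with a window it occurred in Hspa1a, Hspa1b, Hsph1, Dnaja1 and Dnajb4. The core of the antioxidant response element bound by Nrf2, TGACNNNGC searched on both strands, occurred in 10 of the 57 members, among them Hsph1 and Dnajb1, and in 11.5% of all genes with a window. Its letters are not in the windows of Hspa1a and Hspa1b. A match is a description of the letters, not evidence of binding.

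The other heat-inducible members lay closer to the controls. Hsph1 encodes Hsp110, an exchange factor for Hsp70, and was at 24.1 and 24.6 FPKM in the DMF libraries, against 22.9 and 19.3 FPKM in the controls. Hsp90aa1, the inducible form of cytosolic Hsp90, was at 209 and 209 FPKM in the DMF libraries, against 192 and 173 FPKM in the controls. Both were a little higher in both DMF libraries, with log2 differences of 0.21 ± 0.18 and 0.19 ± 0.24 (SE; limma adjusted p = 0.605 and 0.69). The log2 difference was 0.09 for Hsph1 and 0.12 for Hsp90aa1 without control replicate 2. Dnajb1, the DnaJ partner that is induced together with Hsp70, was at 31.3 and 31.0 FPKM in the DMF libraries, between the controls at 25.2 and 36.5 FPKM. Dnaja1, a DnaJ partner of Hspa8, was at 24.5 and 24.1 FPKM in the DMF libraries, against 25.1 and 28.9 FPKM in the controls. Its 30-base stretch with a pair of units is set beside that of Hsph1, with the pair in capitals. The stretches are chr4:40722333-40722362 on the plus strand for Dnaja1 and chr5:149636351-149636380 on the minus strand for Hsph1 (both GRCm38.p6, 5′ to 3′). Dnaja1 holds GAANNTTC, as the Hspa1 copies do, while Hsph1 holds the other form, TTCNNGAA. Unlike the Hspa1 windows, these stretches lie in annotated exons, with 30 of 30 bases for Dnaja1 and 26 of 30 for Hsph1, and the other Dnaja1 windows hold 0 pairs.
Hsph1: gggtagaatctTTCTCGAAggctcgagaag
Dnaja1: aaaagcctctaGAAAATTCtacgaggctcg
The log2 difference of Dnaja1 was -0.14 with all libraries and -0.05 without control replicate 2. Bag3, an exchange factor that links Hsp70 to autophagy, was at 3.92 and 4.06 FPKM in the DMF libraries, against 4.69 and 4.32 FPKM in the controls. Chordc1, an Hsp90 partner, was at 14.5 and 14.3 FPKM in the DMF libraries, between the controls at 13.3 and 15.1 FPKM. Dnajb4, a DnaJ protein close to Dnajb1, was at 1.37 and 1.33 FPKM in the DMF libraries, against 1.08 and 0.975 FPKM in the controls. Hspb1, a small heat shock protein that holds unfolded proteins, was at or near the floor, with 1 and 6 reads in the DMF libraries and 3 and 1 in the controls. Of the 9 tested heat-inducible members, 3 had both DMF libraries above the controls and 4 had both below them, where 26.4% of all tested genes lay above and 26.8% below, and the median log2 difference was 0.02, beside -0.01 over all tested genes. Without Hspa1a and Hspa1b the other 7 ranged from -0.14 to 0.21, and Dnaja1, Bag3, Dnajb4 and Chordc1 changed sign under another scaling or with the gene length trend removed. Hsf1, which encodes HSF1, was at 8.43 and 9.15 FPKM in the DMF libraries, within the controls at 7.05 and 10.4 FPKM, and Hsf2, which encodes another heat shock factor, was at 2.45 and 2.77 FPKM, against 2.91 and 2.79 FPKM. Transcript levels do not measure the activity of these factors.

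**Figure D2:**
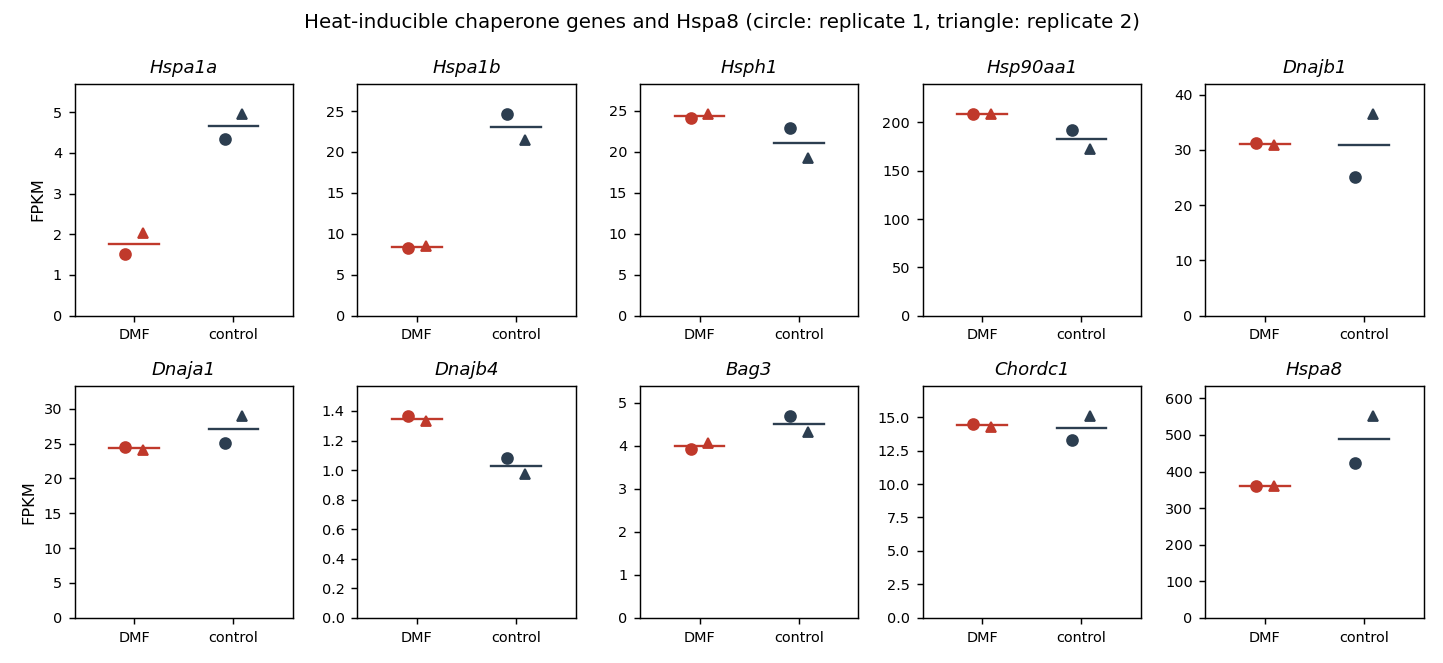
FPKM (vertical axis, from 0) of the 9 tested heat-inducible members and of Hspa8 in the 2 DMF and 2 control libraries, with circles for replicate 1, triangles for replicate 2 and a bar for the mean of each group. Hspa1a and Hspa1b lie far lower in both DMF libraries, while the other inducible genes lie close to the controls.

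Hspa8, the constitutive Hsp70 of the cytosol, was the second most abundant member by mean FPKM, after Hsp90ab1. It was at 359 and 359 FPKM in the DMF libraries, against 424 and 551 FPKM in the controls. Both DMF libraries were lower than both controls, which differed widely from each other, and the log2 difference was -0.43 ± 0.32 (SE, limma adjusted p = 0.576). The value was -0.24 when control replicate 2 was left out (limma adjusted p = 0.0454) and -0.62 when control replicate 1 was (limma adjusted p = 0.00205), while under quantile normalization it turned to 0.21 (limma adjusted p over 14 alternatives from 0.00205 to 1.00). Within each library Hspa1a and Hspa1b together made up 2.63% and 2.85% of the summed FPKM of Hspa1a, Hspa1b and Hspa8 in the DMF libraries, against 6.41% and 4.57% in the controls. The ratio of Hspa8 to Hspa1b was 43.8 and 42.1 in the DMF libraries, against 17.2 and 25.7 in the controls. These ratios lie apart between the groups and do not change with a single scaling factor for each library. Quantile normalization can change them, and they reuse the Hspa1a and Hspa1b values given above.

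Hsp90ab1, the constitutive form of cytosolic Hsp90, was at 849 and 828 FPKM in the DMF libraries, between the controls at 766 and 884 FPKM. Its ratio to Hsp90aa1 per length was 4.07 and 3.97 in the DMF libraries, against 3.98 in control replicate 1 and 5.12 in control replicate 2. The log2 difference of Hsp90ab1 was 0.03 with all libraries, and quantile normalization put Hsp90ab1 and Hsp90aa1 at 0.72 each. Hspa4, an exchange factor of the Hsp110 group, was at 56.8 and 59.6 FPKM in the DMF libraries, against 55.1 and 55.2 FPKM in the controls. Hspa4l, a relative of Hspa4 that was placed in none of the roles, was at 10.1 and 10.3 FPKM in the DMF libraries, against 9.29 and 4.70 FPKM in the controls. The low value was that of control replicate 2. The log2 difference of Hspa4l was 0.55 with all libraries and 0.12 without that library. Among the DnaJ genes listed as constitutive cytosolic, Dnajc7, which bridges Hsp70 and Hsp90, was at 26.2 and 28.0 FPKM in the DMF libraries. Its controls were at 35.4 and 44.4 FPKM. The log2 difference of Dnajc7 was -0.53 ± 0.21 (SE, limma adjusted p = 0.533), and -0.37 without control replicate 2. Dnajc8, a DnaJ protein tied to splicing, was at 44.1 and 43.2 FPKM in the DMF libraries, against 50.03 and 82.3 FPKM in the controls. Dnajb2, which binds ubiquitin as well as Hsp70, was at 6.62 and 7.10 FPKM in the DMF libraries, against 7.63 and 10.8 FPKM in the controls. Dnajc13, an endosomal DnaJ protein, was at 14.8 and 14.5 FPKM in the DMF libraries, against 13.8 and 5.77 FPKM in the controls, with a log2 difference of 0.65 that was 0.08 without control replicate 2. Dnajc7, Dnajc8 and Dnajb2 all lay lower in both DMF libraries, and in each the higher control was replicate 2. The log2 difference of Dnajc8 was -0.55 with all libraries and -0.19 without that library, and that of Dnajb2 was -0.36 and -0.14. The list of constitutive cytosolic members also holds genes such as Dnajc8 and Dnajc13, so it is not purely cytosolic. Of its 22 tested members, 2 lay above both controls and 5 below both (9.09% and 22.7%, where 26.4% and 26.8% of all tested genes did). Their median log2 difference was -0.08. The heat-inducible median minus the constitutive median was 0.10 with all libraries and 0.12 without control replicate 2, and it was -0.03 with the gene length trend removed.

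**Figure D3:**
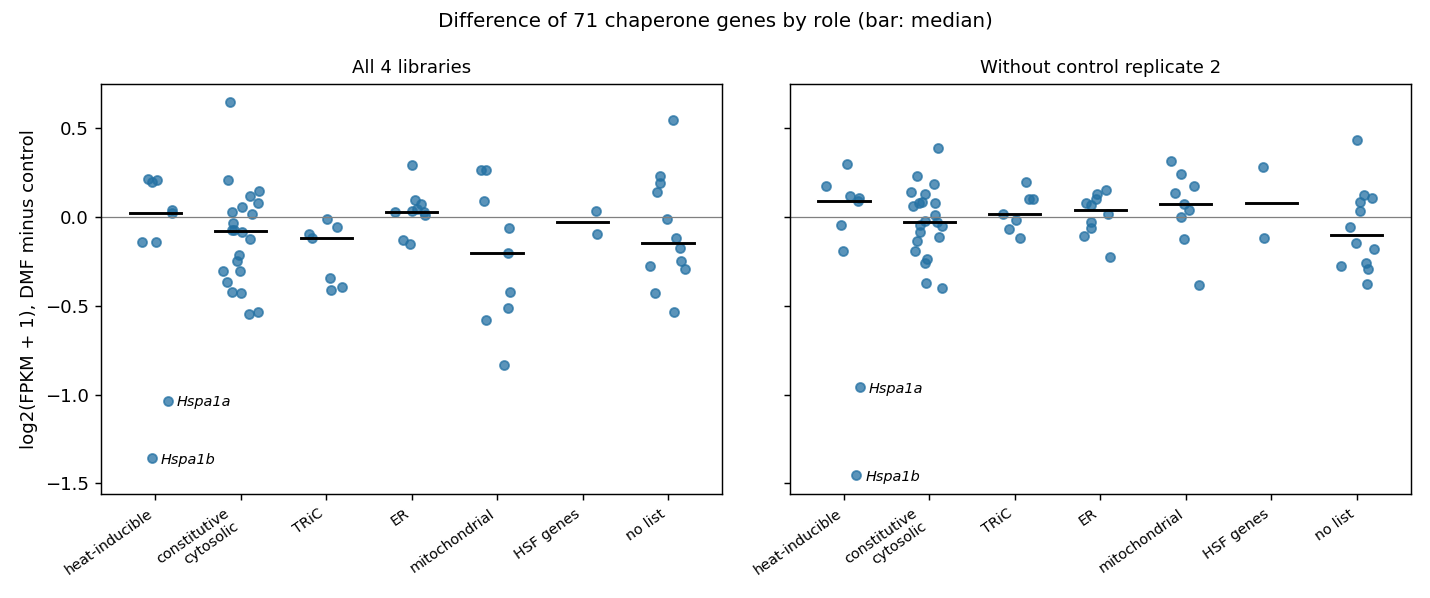
Log2 difference, DMF minus control, of log2(FPKM + 1) (vertical axis) for the 71 tested members by role, with all 4 libraries and without control replicate 2; points are genes and bars are medians. Hspa1b and Hspa1a are the 2 lowest points in both panels, with Dnajc15 at -0.83 nearest to Hspa1a with all 4 libraries.

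TRiC is built of different subunits that are each needed for the complex. Of its subunit genes, 7 members were placed in this role, and all 7 were tested. Cct2 was at 178 and 178 FPKM in the DMF libraries, between the controls at 166 and 225 FPKM, and Tcp1, the founding subunit, was at 77.1 and 80.1 FPKM, between 73.2 and 86.0 FPKM. Cct4, at 80.5 and 81.9 FPKM in the DMF libraries, also lay between the controls at 70.9 and 100 FPKM. Cct8 overlapped the controls, at 132 and 138 FPKM in the DMF libraries, against 133 and 156 FPKM. Cct3 was at 47.8 and 49.8 FPKM in the DMF libraries, against 53.1 and 80.0 FPKM in the controls. Cct5 was at 132 and 136 FPKM, against 141 and 208 FPKM, and Cct7 at 49.0 and 49.4 FPKM, against 49.7 and 85.1 FPKM. In Cct3, Cct5 and Cct7 the DMF libraries lay under both controls, or 42.9% of the 7 genes, and 0% lay above both. Of all tested genes, 26.8% lay below and 26.4% above. Control replicate 2 was the highest library for all 7 genes. The median log2 difference was -0.12 over the 7 genes and 0.02 without control replicate 2, and the limma adjusted p of single subunits lay between 0.561 and 0.976. Under quantile normalization the median was 0.29, and Cct5 changed sign with Cct2, Cct4, Cct8 and Tcp1. Cct6a encodes another subunit but has the biotype processed_transcript in the deposited table and is not a member by the rule; it was at 80.6 and 77.4 FPKM in the DMF libraries, against 74.4 and 92.1 FPKM in the controls. Cct6b, a variant known from testis, is a member that was placed in none of the roles. It did not reach the minimum and had 11 and 18 reads with DMF, against 5 and 12 in the controls.

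**Figure D4:**
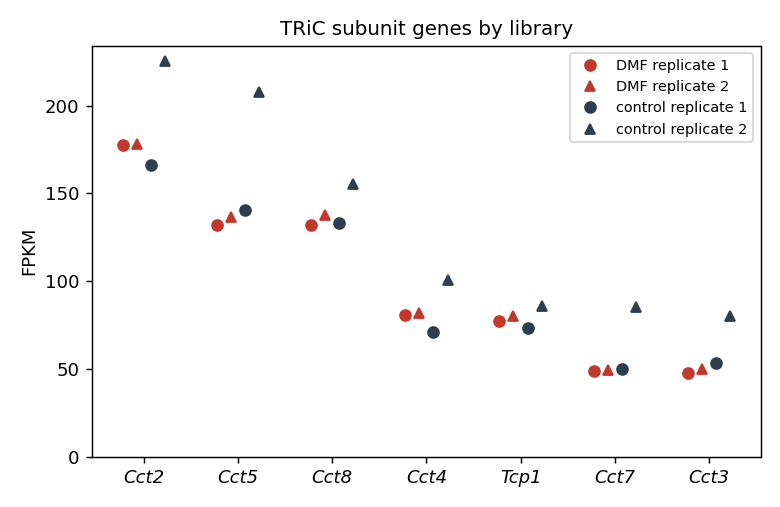
FPKM (vertical axis, from 0) of 7 TRiC subunit genes in each library, DMF in red and control in dark blue. The DMF libraries and control replicate 1 lie close together for every subunit, and control replicate 2 lies above them. For Cct5 the values are 132 and 136 FPKM in the DMF libraries and 141 and 208 FPKM in the control libraries.

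In the mitochondrion, Hspa9 and Hspd1 were higher in both DMF libraries. Hspd1 (GRCm38 chromosome 1, 55077835 to 55088243), which encodes Hsp60, was at 238 and 233 FPKM in the DMF libraries, against 189 and 203 FPKM in the controls. Hspa9, the mitochondrial Hsp70 that also pulls proteins in through the inner membrane, was at 173 and 179 FPKM in the DMF libraries, against 149 and 143 FPKM in the controls. The ratio of the DMF mean to the control mean was 1.20 for each, with no overlap of the groups. The log2 differences were 0.26 ± 0.25 for Hspd1 and 0.27 ± 0.23 for Hspa9 (SE; limma adjusted p = 0.615 and 0.597). Without control replicate 2 Hspd1 was at a log2 difference of 0.31 with a limma adjusted p of 0.0358, and Hspa9 at 0.24 with 0.0586; over 14 alternatives the limma adjusted p ran from 0.0168 to 1.00 for Hspd1 and from 0.0108 to 1.00 for Hspa9. The log2 difference ran from 0.21 to 0.83 for Hspd1 and from 0.24 to 0.75 for Hspa9 over these alternatives, with the highest under quantile normalization. Hspe1, the Hsp10 lid of Hsp60, overlapped between the groups and was at 135 and 141 FPKM in the DMF libraries, between 125 FPKM in control replicate 1 and 274 FPKM in control replicate 2. The ratio of Hspd1 to Hspe1 per length was 1.76 and 1.65 in the DMF libraries, against 1.51 in control replicate 1 and 0.740 in control replicate 2.

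Hspd1 and Hspe1 start back to back, and the Hspe1 window and 1 of the 2 Hspd1 windows overlap in a stretch that is shown because it holds 3 overlapping pairs of heat shock units. All 30 bases shown lie in an annotated exon of Hspd1, and the other Hspd1 window holds 0 pairs. In capitals is the run of these pairs in the 30-base stretch from 95 to 66 bases before the RefSeq start of Hspe1, chr1:55088053-55088082 on the plus strand of GRCm38.p6.
Hspe1: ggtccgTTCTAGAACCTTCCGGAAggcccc
A run of 3 alternating heat shock units, searched on both strands and overlapping the pairs, occurred in Hspd1, Hspe1 and Dnajb6 among the 57 members with a window, and in 0.514% of all genes with one. Hspd1 and Hspe1 are counted as separate genes there although they match in the same DNA. Dnajc15, a DnaJ protein of the inner membrane, was at 7.39 and 6.87 FPKM in the DMF libraries, against 9.59 and 18.8 FPKM in the controls. Its log2 difference of -0.83 ± 0.35 (SE, limma adjusted p = 0.549) was -0.38 with control replicate 2 left out and -1.28 with control replicate 1 left out. Dnajc4 was at 12.4 and 13.1 FPKM in the DMF libraries, against 14.0 and 24.7 FPKM in the controls. Dnajc30 was at 5.79 and 4.97 FPKM, against 5.37 and 13.2 FPKM. In Dnajc15, Dnajc4 and Dnajc30 the high value was again that of control replicate 2, and 26.2% of the exon bases of Dnajc30 also lie in an exon of Bud23 on the other strand. The log2 difference of Dnajc4 was -0.51 with all libraries and -0.13 with that library left out. Dnaja3, the DnaJ partner of Hspa9, was at 20.1 and 19.6 FPKM in the DMF libraries, against 18.8 and 18.4 FPKM in the controls. Of the 9 tested mitochondrial members, 3 (Hspd1, Hspa9 and Dnaja3) lay above both controls and 2 (Dnajc15 and Dnajc4) below both, or 33.3% and 22.2%, where 26.4% and 26.8% of all tested genes did. The median log2 difference was -0.20 with all libraries and 0.07 without control replicate 2.

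**Figure D5:**
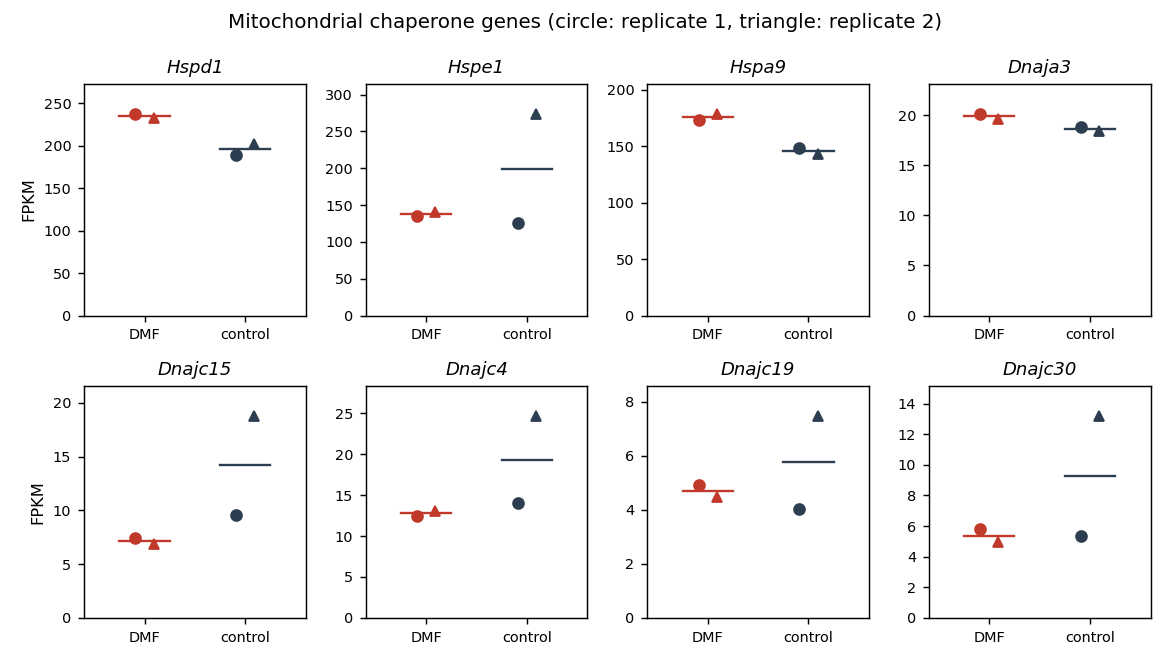
FPKM (vertical axis, from 0) of 8 mitochondrial chaperone genes in the 2 DMF and 2 control libraries, with circles for replicate 1, triangles for replicate 2 and a bar for the group mean. Hspd1 and Hspa9 lie higher in both DMF libraries, and control replicate 2 is the high point for Hspe1, Dnajc15, Dnajc4, Dnajc19 and Dnajc30.

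The endoplasmic reticulum (ER) members had log2 differences close to 0. Hspa5, which encodes BiP, the Hsp70 of the ER, was at 158 and 169 FPKM in the DMF libraries, against 147 and 164 FPKM in the controls, so the groups overlapped. Hsp90b1, the Hsp90 of the ER (also called Grp94), was at 57.0 and 55.9 FPKM in the DMF libraries, between the controls at 52.5 and 57.9 FPKM. Hspa13, an Hsp70 relative of microsomes, was at 3.93 and 4.04 FPKM in the DMF libraries, against 3.57 and 2.63 FPKM in the controls, with a log2 difference of 0.29 that was 0.13 without control replicate 2. Dnajb11, a DnaJ partner of BiP, was at 30.1 and 28.995 FPKM in the DMF libraries, against 30.9 and 35.2 FPKM in the controls, and Dnajc25 was at 1.41 and 1.31 FPKM, against 1.33 and 1.87 FPKM. All 10 ER members were tested, 1 lay above both controls (Hspa13) and 1 below both (Dnajb11), where 26.4% and 26.8% of all tested genes did, and their log2 differences ran from -0.15 to 0.29 with a median of 0.03. Without control replicate 2 that median was 0.04. The ER stress element, searched on both strands, occurred in the windows of Hspa5, Hsp90b1 and Dnajc3, 3 of the 9 ER members with a window, and in 0.13% of all genes with one.

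Of the 27 members placed in none of these roles, 12 were tested. Dnajc12, a DnaJ partner of aromatic amino acid hydroxylases, was at 1.05 and 0.861 FPKM in the DMF libraries, against 1.54 and 2.15 FPKM in the controls. Dnajb5 was at 6.08 and 5.78 FPKM in the DMF libraries, against 6.84 and 7.98 FPKM in the controls. Both were lower in both DMF libraries, with log2 differences of -0.53 and -0.28 (limma adjusted p = 0.551 and 0.561). These were -0.38 for Dnajc12 and -0.18 for Dnajb5 without control replicate 2. Among these 12 genes, 1 (Hspa4l) lay above both controls and 5 below both (8.33% and 41.7%, where 26.4% and 26.8% of all tested genes did). The median log2 difference was -0.15 with all libraries and -0.10 without control replicate 2. The other 19 members lay below the level filter, with mean FPKM of up to 0.838, and 2 of them, Hspb2 and Hspb3, had 0 reads in every library. A count of 0 allows up to 3 reads in a library. Hspb8, another small heat shock protein, had 4 and 0 reads in the DMF libraries and 5 and 0 in the controls.

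Over all 71 tested members, 10 had both DMF libraries above the controls, or 14.1%, where 26.4% of all tested genes did. Below both controls lay 21 members, or 29.6%, where 26.8% of all tested genes did. The share of members that lay below was thus near that of all genes. The median log2 difference was -0.08 over the members and -0.01 over all tested genes, and 0.02 and 0.01 without control replicate 2. On voom's scale the median of all genes itself moved to 0.15, beside 0.09 for the members. Apart from Hspa1a and Hspa1b, the log2 differences of the other 69 lay between -0.83 and 0.65 (Dnajc15 and Dnajc13). Of the 71, 61 were within 0.5 of 0, where 8599 of all 12166 tested genes were. Without control replicate 2, limma called 1 member higher (Hspd1) and 2 lower (Hspa1b and Hspa8) at an adjusted p under 0.05, where 2.77% of all tested genes were called higher and 5.51% lower. Members took 1.502% and 1.509% of all reads in the DMF libraries, against 1.423% and 1.419% in the controls.

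Other genes of protein folding, 53 in 6 lists, were set beside the members, and 51 of them were tested. At an adjusted p under 0.05 limma called 0 of them, 8 lay above both controls and 18 below both (15.7% and 35.3%, where 26.4% and 26.8% of all tested genes did), and their median log2 difference was -0.14 (0.03 without control replicate 2). Among genes that heat or stress can induce, Hmox1, which encodes heme oxygenase 1 and is a target of both HSF1 and Nrf2, was at 13.4 and 13.7 FPKM in the DMF libraries, against 7.18 and 10.5 FPKM in the controls. Ubb, a polyubiquitin gene, was at 448 and 441 FPKM in the DMF libraries, against 481 and 959 FPKM in the controls. Hmox1 lay higher and Ubb lower in both DMF libraries, with log2 differences of 0.59 ± 0.23 and -0.61 ± 0.46 (SE; limma adjusted p = 0.536 and 0.578), and without control replicate 2 these were 0.83 (limma adjusted p = 0.026) and -0.11. Over 14 alternatives the limma adjusted p of Hmox1 ran from 0.0195 to 1.00, and Ubb turned to 0.05 under quantile normalization.

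Among Hsp90 partners, Fkbp8 was at 45.8 and 49.8 FPKM in the DMF libraries, against 61.2 and 111 FPKM in the controls. Among Hsp70 partners, Sgta was at 38.1 and 39.6 FPKM in the DMF libraries, against 43.5 and 63.6 FPKM in the controls, and Ttc1 at 21.6 and 20.7 FPKM, against 22.1 and 30.3 FPKM. These 3 genes lay lower in both DMF libraries and highest in control replicate 2. The log2 differences of Fkbp8, Sgta and Ttc1 were -0.78, -0.43 and -0.28 with all libraries, and -0.35, -0.16 and -0.06 without that library. Prefoldin hands unfolded actin and tubulin to TRiC, and the median over 8 genes for prefoldin and the nascent chain complex was -0.64, or -0.14 without control replicate 2. Its subunit gene Pfdn1 was at 46.1 and 47.6 FPKM in the DMF libraries, against 65.1 and 144 FPKM in the controls, and Pfdn5 at 47.7 and 41.5 FPKM, against 60.7 and 141 FPKM. Without control replicate 2 the log2 difference of Pfdn1 was -0.47, with a limma adjusted p of 0.0308 (0.00134 to 1.00 over 14 alternatives). In the ER, Sil1, an exchange factor for BiP, was at 9.93 and 11.4 FPKM in the DMF libraries, against 15.4 and 22.8 FPKM in the controls. It was the 1 of the 51 genes with an unadjusted limma p under 0.05, where 6.31% of all tested genes were lower and 3.14% higher. The log2 difference of Sil1 was -0.76 with all libraries and -0.49 without control replicate 2. Manf, a stress-induced secreted protein, was at 22.4 and 23.7 FPKM, against 23.9 and 55.2 FPKM. The log2 difference of Manf was -0.64 with all libraries and -0.05 without control replicate 2. In mitochondria, Grpel1, an exchange factor for Hspa9, was at 19.5 and 21.3 FPKM in the DMF libraries, against 21.7 and 44.2 FPKM in the controls. The log2 difference of Grpel1 was -0.58 with all libraries and -0.09 without control replicate 2. The protease gene Lonp1 was at 63.4 and 67.0 FPKM in the DMF libraries, against 52.6 and 55.8 FPKM in the controls. Lonp1 thus lay higher in both DMF libraries, by a ratio of means of 1.20, the same ratio as for Hspd1 and Hspa9.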

How the data were processed

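RNA-seq of total RNA was deposited by the authors as FPKM per gene for 2 DMF and 2 control libraries; the submitters' processing notes name edgeR and the build mm8 without a role, and no source used here gives an aligner, a counter or a strand setting. The coordinates in the deposited table match GRCm38 instead (98.3% of 54409 shared identifiers equal GENCODE M21), so GRCm38 coordinates are printed. In each library, 100% of the FPKM values came out as whole reads within 0.01 of a read, which gave the read counts stated. The library size implied by FPKM was 1.07 and 1.07 times these reads in the DMF libraries, against 1.03 and 0.876 times in the controls, so FPKM runs higher per read in control replicate 2. These counts and floors cover counting error only.

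The 12166 genes whose mean FPKM reached 1 were tested on log2(FPKM + 1) with limma 3.58.1 in R 4.3.3 (lmFit, eBayes with trend, 2-sided, Benjamini-Hochberg over all tested genes, threshold 0.05) without a replicate block. The fit was tested on simulated data in which no library stood apart and no trend with gene length was set, so that test does not cover these features. Alternatives were pseudocounts of 0.1 and 0.5, no filter, a mean FPKM of at least 5, trimmed mean and quantile scaling, eBayes without trend, voom on the recovered reads, removal of the gene length trend (loess, span 0.3), a replicate block, and leaving out each library. The members, roles, motifs and lists were chosen with earlier results of these data known. Named are Hspa8, the Hsp90, Hsp60, Hsp10 and organelle Hsp70 genes, Hspa4, every heat-inducible, TRiC and heat shock factor member, up to 3 further tested members per other role and up to 2 genes per other list with the smallest p, of which 1 is not reported here. Dnaja3, Dnajb6, Dnajc3, Dnajc13, Dnajc19, Hspa1l, Cct6a, Cct6b, Hspb2, Hspb3 and Hspb8 were named after their values were seen. Promoter windows came from RefSeq (GRCm38.p6).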

Additional observations from a re-analysis of the deposited data

How the results depend on the processing

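The call count was 0 with all 4 libraries and under every alternative except the replicate block (552 genes) and leaving out 1 library, which gave 6 to 7420 genes (1007 without control replicate 2, 7420 without control replicate 1). The labels do not tie same-numbered libraries together. Their deviations from the group mean had a correlation of -0.0233 over 12166 genes. With 2 libraries a group and control replicate 2 standing apart, that value cannot show whether a pairing exists. Under the block the limma adjusted p of Hspa1b was 0.0046, and no other named gene gained or lost a call. Hspa1a and Hspa1b stayed lower in DMF under every alternative that gave a value. With 2 libraries a group, small differences cannot be told from replicate spread, and Hspa1a rests on few reads. The cause of each shift below was not tested.

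With 1 library left out, medians of log2 differences ran from -0.166 to 0.0172 for all members, from -0.0913 to 0.0892 for heat-inducible, from -0.164 to -0.0259 for constitutive, from -0.338 to 0.0172 for TRiC, from -0.00815 to 0.0529 for ER and from -0.575 to 0.0725 for mitochondrial members, and from 0.0728 to 0.137 for heat-inducible minus constitutive. Quantile normalization gave 0.0325 for all members, 0.0767 for heat-inducible, 0.0645 for constitutive, 0.293 for TRiC, 0.0685 for ER and 0.0122 for heat-inducible minus constitutive. Voom gave 0.0860 for all members, 0.190 for heat-inducible, 0.0823 for constitutive and 0.197 for ER. Removing the length trend gave 0.0158 for constitutive and -0.0262 for heat-inducible minus constitutive.

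Signs reversed with the length trend removed in Bag3 (0.081), Cct2 (0.103), Cct8 (0.067), Chordc1 (-0.148), Dnajb4 (-0.0105), Hsf1 (-0.119) and Ttc1 (0.00684). They reversed under quantile normalization in Cct2 (0.417), Cct4 (0.293), Cct5 (0.0842), Cct8 (0.311), Dnaja1 (0.00015), Dnajb11 (0.0132), Hspa8 (0.214), Hspe1 (0.0595), Tcp1 (0.326) and Ubb (0.046). They reversed under voom in Cct2 (0.0464), Cct4 (0.110), Cct8 (0.0708), Dnaja1 (0.0175), Dnajb11 (0.00793), Hsf2 (0.0335) and Tcp1 (0.152), and under trimmed mean scaling in Tcp1 (0.0096). With 1 library left out, log2 differences ran from -0.338 to 0.1003 for Cct2, -0.304 to 0.194 for Cct4, -0.207 to 0.0172 for Cct8, -0.0642 to 0.109 for Chordc1, -0.223 to 0.296 for Dnajb1, -0.281 to 0.0176 for Dnajc25, -0.215 to 0.281 for Hsf1, -0.0766 to 0.131 for Hsp90ab1, -0.0360 to 0.101 for Hsp90b1, -0.00428 to 0.150 for Hspa5, -0.984 to 0.137 for Hspe1 and -0.129 to 0.101 for Tcp1.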
